A study of Mus musculus with 100 samples.

Results

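The prefrontal cortex of newborn mice that carried no intact copy of Myt1l (HOM, Myt1l -/-) was compared with that of wild-type mice (WT, Myt1l +/+) by bulk RNA sequencing at P0, the day of birth. The comparison took every P0 HOM and P0 WT library of the series. The libraries of an animal were summed, so that 16 libraries gave 10 animals, 6 HOM and 4 WT, out of 100 libraries from 53 animals in the whole series. Animals of both sexes were used, and their strain is C57BL/6J per the labels but C57BL/6N per the study's methods. The mutation is a germline frameshift made by Cas9 in zygotes, so every cell of a HOM animal carried it on both copies from conception, and HOM pups die after birth. The 6 heterozygous animals of the same age (HET, Myt1l +/-) shared the estimate of the spread, and the 5 HOM and 5 WT animals of E18.5, whose whole cortex was taken in place of the prefrontal part, served as other animals in which the same genes could be read. The 6 HET animals of E18.5 shared the estimate of the spread at that age. The E18.5 WT animals and 6 WT animals of P22, whose prefrontal cortex was taken, gave the change over normal development.

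MYT1L is a zinc finger protein of the MYT family found in neurons, which start to make it as they leave the cell cycle. It is known chiefly as a repressor, which recruits SIN3 and histone deacetylases to genes that carry the short AAAGTT core and keeps programmes of progenitors and of other lineages low. Its relatives are MYT1 and ST18, and heterozygous loss of the human gene causes a neurodevelopmental syndrome with autism and intellectual disability.

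The deletion that makes the mutant allele is shown because every HOM value below rests on it. The mouse gene Myt1l (ENSMUSG00000061911.15) lies on the plus strand at chr12:29528384-29923213 of GRCm38, and the 7 deleted bases fall in exon 6, its first coding exon, at chr12:29783649-29783655. Placements 1 base to either side give the same mutant sequence. The first 60 coding bases of the GENCODE transcript are given from the start codon, with the deleted bases in capitals, above the same stretch without them:
Myt1l wild type: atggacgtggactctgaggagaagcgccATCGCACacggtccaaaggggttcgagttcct
Myt1l mutant: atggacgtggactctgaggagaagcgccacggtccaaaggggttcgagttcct
The loss of 7 bases shifts the reading frame from amino acid 11, and the shifted frame ends at amino acid 78. Per the labels the transcript escapes nonsense-mediated decay, so a read count of Myt1l does not measure the loss of the protein.

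The 10 animals came from sequencing batches 1 and 3. Batch 1 held 2 HOM and 2 WT animals with 1 library each and 123 to 149.6 M counted reads per animal. Batch 3 held 4 HOM and 2 WT animals with 2 libraries each and 30.0 to 37.8 M reads. Batch 1 compared female HOM with male WT animals, and both WT animals of batch 3 were female, so that genotype, sex and batch were unevenly mixed. The levels of sex-linked transcripts matched the labelled sex in 10 of 10 animals. Levels are given as CPM (counts per 1 M normalised reads), and differences as log2 HOM minus WT from the fit with batch as a term, ± its standard error (SE). A gene was called where the adjusted p of edgeR's quasi-likelihood test, by Benjamini and Hochberg over all genes tested, was under 0.05. The tissue carried the markers of cortical excitatory neurons in every animal. Per kilobase of exon, the neuronal Stmn2 lay between 238 and 332 CPM, Neurod6 between 144 and 382 and the cortical regulator Tbr1 between 29.9 and 49.0 over the HOM and WT animals.

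Between HOM and WT, 36 of 18350 genes were called (0.196%), 29 higher (0.158%) and 7 lower (0.0381%) in HOM. The calls ran from the 3.08-fold higher Slc6a4, the serotonin transporter, to the cell surface proteoglycan gene Gpc5 at 0.465 of the WT level. In all 36, every HOM animal deviated in the called direction from the average WT animal of its batch, and the HOM and WT animals did not overlap in 34. Over all genes tested, every HOM animal lay on the same side of that average in 2051 of 18350 genes. The groups did not overlap in 203 genes with HOM higher (1.11%) and in 121 with HOM lower (0.659%). The difference had the same sign in batch 1 and in batch 3 for all 36 called genes, with a median log2 difference of 1.05 in batch 1 and of 0.74 in batch 3 over the 29 higher genes. The median over all genes tested was near 0, at -0.02 in batch 1 and -0.00 in batch 3. The 36 genes were chosen for their difference in these same animals, so their agreement across animals and batches is no separate test. Only Myt1l was called within batch 3 alone, and leaving out the batch 1 animal P0_WT_311 also left Myt1l as the single call. A fit of the HOM and WT animals alone, without HET, called 3 genes, Myt1l, Sstr1 and Kcna1. DESeq2 with batch as a term called 387 of 37898 genes, all 36 among them, with 228 higher and 159 lower. The split between directions also moved with single animals, to 84 higher and 103 lower without P0_HOM_690 and 36 higher and 34 lower without P0_WT_704. The study used sex as the covariate. With sex in place of batch 10 genes were called, all among the 36: Myt1l, Sstr1, Kcna1, Npy, Kif26a, Ier5l, Mmp14, Ptpru, Cryz and Col23a1.

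**Figure D1:**
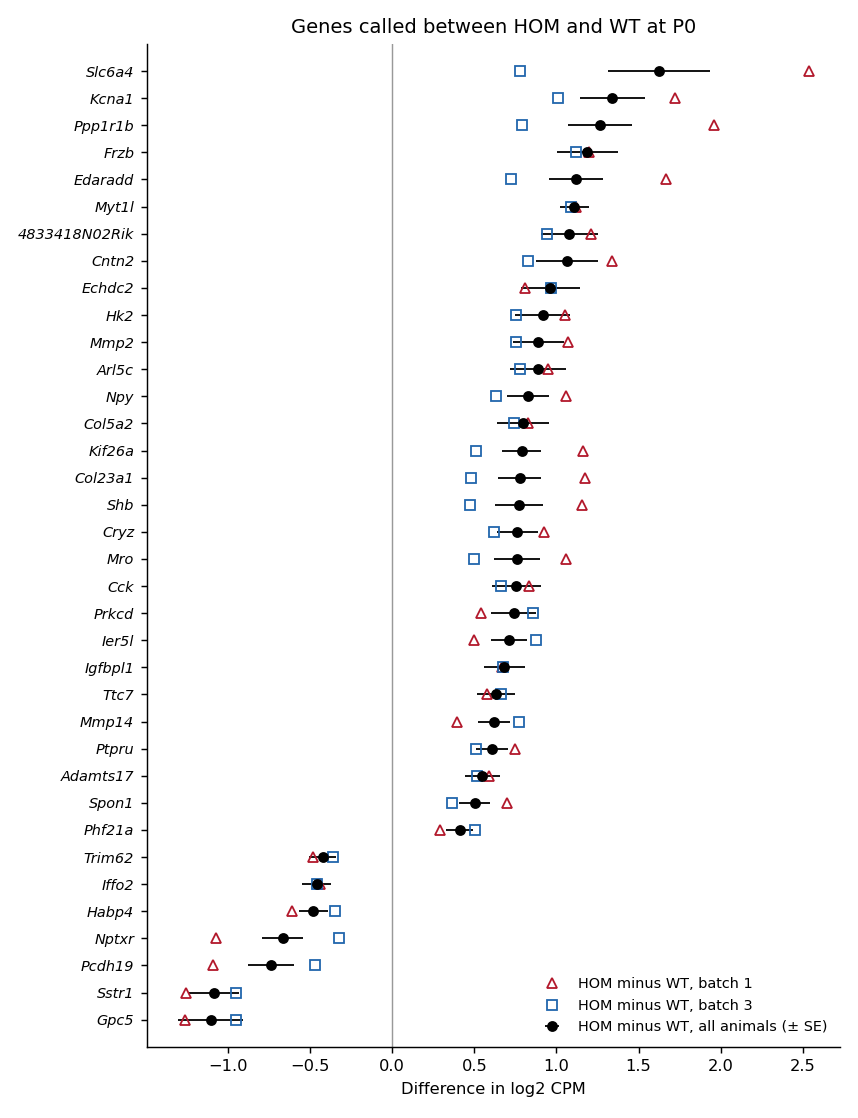
Difference in log2 CPM between HOM and WT for each of the 36 called genes, sorted by size, from the fit over all animals (black points, bars ± SE) and from the means of batch 1 (open triangles) and batch 3 (open squares). All 36 genes, chosen by a fit on both batches, keep their side of 0 in each. Slc6a4 and Ppp1r1b, at 2.54 and 1.96 in batch 1 against 0.78 and 0.79 in batch 3, lie among those with the widest gap.

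Transcripts of the mutated gene itself had the smallest p of all genes tested. Myt1l read 423 and 429 (batch 1) and 463 and 413 (batch 3) CPM in the WT animals, against a range of 809 to 1054 CPM (median 925) in HOM. The HOM level was 2.16-fold that of WT (log2 1.11 ± 0.09, adjusted p = 5.0e-06), with no overlap and nearly equal differences of 1.12 in batch 1 and 1.09 in batch 3. The lowest HOM animal stood far above the highest WT animal, and the call held when any of the 10 animals was left out. Of the paralogues, Myt1 went from 36.8 ± 2.19 CPM (SD over the WT animals) to 44.0 ± 2.74 in HOM without being called (adjusted p = 0.19). St18 was at 4.58 ± 2.04 and 3.49 ± 0.52 CPM (adjusted p = 0.67). No other gene within 5 Mb of Myt1l was called among 53 tested, and their median log2 difference was 0.04. The called genes Sstr1 and Kif26a share chromosome 12 with Myt1l but lie 28.7 and 82.6 Mb from it.

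**Figure D2:**
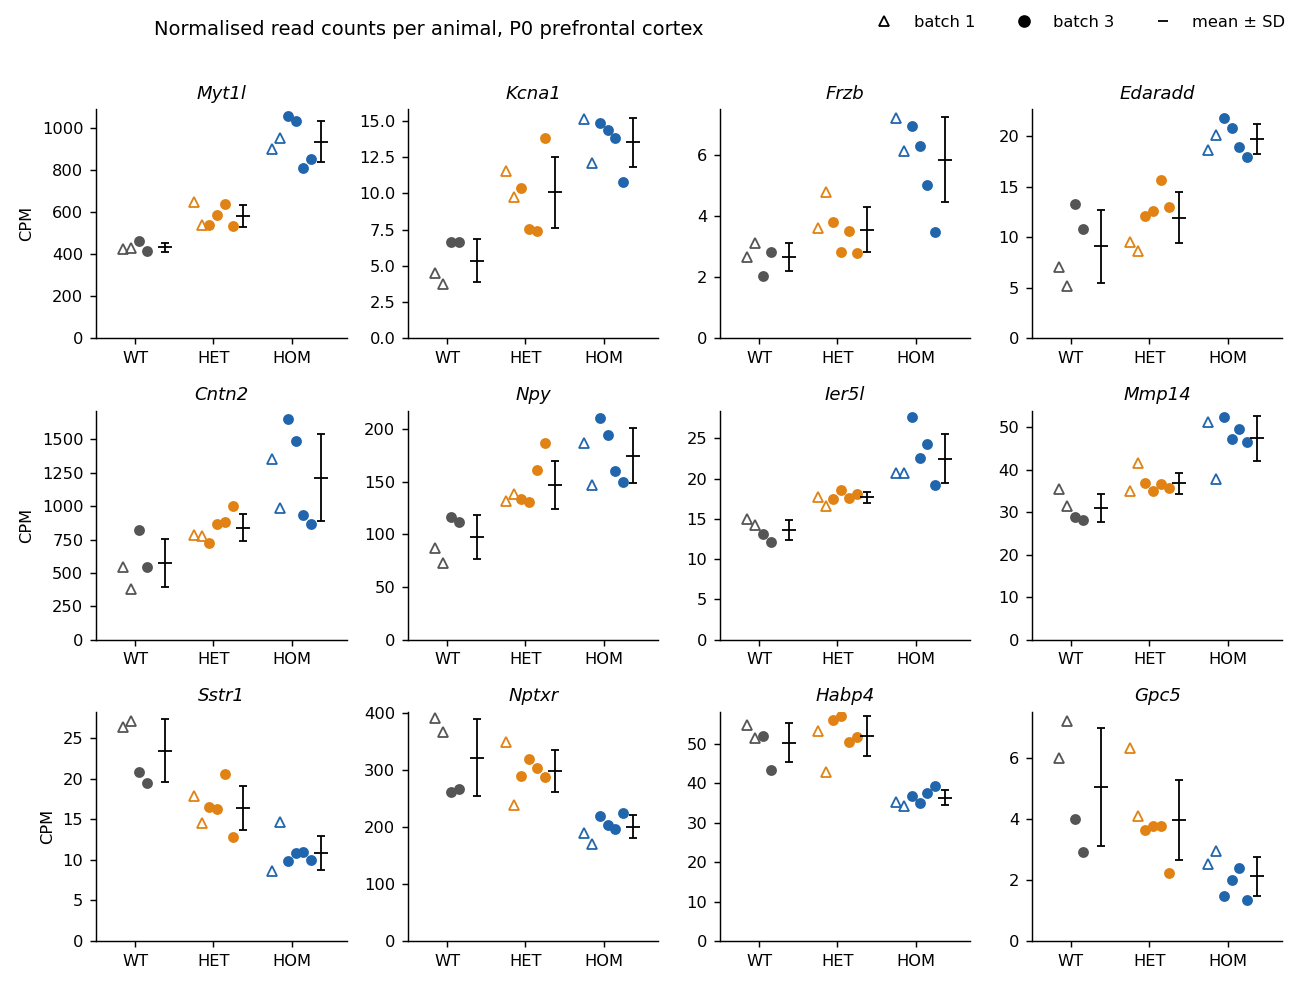
CPM of 12 called genes in each P0 animal by genotype, with batch 1 as open triangles, batch 3 as filled circles, and the mean ± SD of the group beside them. In 11 of the panels no HOM animal reaches the WT range, while in Gpc5 the HOM animals reach up to 2.95 CPM and the WT animals down to 2.92.

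Neuropeptides and their receptors moved in both directions. Sstr1, a somatostatin receptor, was lower in HOM: the WT animals had 26.3, 27.1, 20.9 and 19.5 CPM and the HOM animals ranged over 8.56 to 14.6 CPM (median 10.4). The highest HOM value thus stayed under the lowest WT value, and the level was 0.471 of WT (log2 -1.09 ± 0.15, adjusted p = 0.011). Npy, which encodes neuropeptide Y of cortical interneurons, was higher, with 87.1, 72.6, 117 and 112 CPM in WT and 147 to 210.3 CPM (median 173) in HOM (1.77-fold, log2 0.83 ± 0.13, adjusted p = 0.011). Cck, the cholecystokinin precursor, read 23.3, 22.3, 30.7 and 25.2 CPM in WT and 31.5 to 57.5 CPM (median 42.4) in HOM (1.69-fold, log2 0.76 ± 0.15, adjusted p = 0.042). For Npy and Cck the groups did not overlap, although the lowest HOM animal for Cck, at 31.5 CPM, lay just above the highest WT animal at 30.7 CPM. Of the 37 tested neuropeptide and hormone receptor genes these 3 were the called ones, 19 of the 37 lay above 0, and their median was 0.02.

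Genes of neuronal signalling followed. Kcna1, the voltage-gated potassium channel subunit Kv1.1, rose 2.53-fold (log2 1.34 ± 0.20, adjusted p = 0.011), from 4.48, 3.73, 6.65 and 6.64 CPM in the WT animals to a range of 10.8 to 15.1 CPM (median 14.1) in HOM. All HOM animals exceeded all WT animals. The other potassium channel genes did not follow it: Kcna1 was the only call among 55, and the list had a median of -0.05. Ppp1r1b, which encodes the phosphatase inhibitor DARPP-32 of striatal projection neurons and some cortical neurons, read 39.2 and 27.2 (batch 1) and 100.4 and 75.8 (batch 3) CPM in WT and 119 to 172 CPM (median 143) in HOM (2.40-fold, log2 1.27 ± 0.20, adjusted p = 0.011). Its WT values lay lower in batch 1 than in batch 3, while every HOM value lay above both. Slc6a4, which takes up serotonin and is transiently made by some non-serotonergic neurons around birth, was rare, with 0.298, 0.348, 1.10 and 1.26 CPM in WT and 1.38 to 2.75 CPM (median 2.10) in HOM (log2 1.62 ± 0.31, adjusted p = 0.035). The lowest HOM animal lay just above the highest WT animal. Prkcd, a protein kinase C isoform, rose 1.67-fold (log2 0.74 ± 0.14, adjusted p = 0.032), from a WT range of 26.8 to 39.9 CPM to 42.6 to 61.2 CPM (median 54.4) in HOM.

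On the synaptic side a single gene passed the test. Nptxr, the neuronal pentraxin receptor, which helps to cluster AMPA receptors, read 391, 367, 261 and 267 CPM in WT and 170.4 to 224 CPM (median 200.2) in HOM (0.630 of WT, log2 -0.67 ± 0.12, adjusted p = 0.032). The groups did not overlap, but the difference was -1.08 in batch 1 and -0.33 in batch 3. Nptxr also overlaps the gene Npcd on the same strand, which read 83.5 CPM in WT and gave a log2 difference of -0.55 (adjusted p = 0.14), so their reads may have been shared. Nptxr was the only call among 47 glutamatergic postsynapse genes (median -0.05, 20 above 0). None of 40 presynaptic genes was called (median -0.08, 14 above 0), nor any of 18 GABA and glycine receptor genes (median -0.12, 5 above 0). Among the uncalled members the calcium sensors Doc2a and Doc2b of the release machinery had log2 differences of -0.49 and -0.73 (adjusted p = 0.08 and 0.10), and the GABA receptor subunit gene Gabra4 one of -0.66 (adjusted p = 0.19). Of 12 sodium channel genes and 15 calcium channel genes none was called.

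Adhesion and guidance molecules were on both sides. Cntn2, or TAG-1, an immunoglobulin adhesion molecule on the axons of young neurons, read 544, 383, 819.7 and 547 CPM in WT and 869 to 1653 CPM (median 1171) in HOM (2.09-fold, log2 1.06 ± 0.19, adjusted p = 0.027). The lowest HOM value, at 869 CPM, lay close above the highest WT value. Pcdh19, the X-linked protocadherin gene mutated in a clustering epilepsy, was at 0.599 of WT (log2 -0.74 ± 0.14, adjusted p = 0.035). The Pcdh19 difference was -1.09 in batch 1, where the HOM animals were female and the WT animals male, and -0.47 in batch 3. Its values were 90.7, 104, 63.3 and 57.3 CPM in WT and 35.8 to 56.6 CPM (median 41.9) in HOM, and the highest HOM animal, at 56.6 CPM, almost met the lowest WT animal at 57.3. Gpc5, a glypican made by astrocytes, read 6.02, 7.23, 4.02 and 2.92 CPM in WT and 1.35 to 2.95 CPM (median 2.20) in HOM (log2 -1.10 ± 0.20, adjusted p = 0.029), and here the groups overlapped slightly. Ptpru, a receptor tyrosine phosphatase with adhesion domains, and Kif26a, an atypical kinesin, rose 1.52- and 1.73-fold with adjusted p = 0.011 for each. Spon1, the secreted guidance protein F-spondin, rose 1.42-fold (adjusted p = 0.035). In the list of 35 cell adhesion genes Pcdh19 was the only call, 7 lay above 0 and the median was -0.21, with -0.22 in batch 1 and -0.21 in batch 3. Among its other members Cdh4 had a log2 difference of 0.60 ± 0.13 (adjusted p = 0.063), Pcdh20 one of -0.93 ± 0.25 (0.14) and Cntn5 one of -0.73 ± 0.20 (0.15). None of 42 axon guidance genes was called, and Robo3, a receptor of crossing axons, came nearest at 0.96 ± 0.20 (adjusted p = 0.058).

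Grouped after their values were seen, and with no list fixed for them, 5 called genes encode collagens or secreted and membrane-bound proteases that act on the extracellular matrix. These 5 were higher in HOM, whereas the proteoglycan gene Gpc5 described above was lower. Mmp14, a membrane-bound metalloprotease that activates pro-MMP2, read 35.4, 31.5, 28.9 and 28.3 CPM in WT and 37.7 to 52.3 CPM (median 48.4) in HOM (1.54-fold, log2 0.62 ± 0.10, adjusted p = 0.011). Its partner Mmp2, the secreted gelatinase, rose 1.85-fold (log2 0.89 ± 0.15, adjusted p = 0.022), from 8.68, 6.28, 11.0 and 8.42 CPM to a range of 11.6 to 19.0 CPM (median 17.2). For both proteases all HOM animals exceeded all WT animals. The collagen genes Col23a1 and Col5a2 rose 1.71- and 1.74-fold (adjusted p = 0.016 and 0.042) and the secreted protease gene Adamts17 1.46-fold (adjusted p = 0.042). The list of 23 tested markers of fibroblasts and meninges, which also make collagens, held no called gene. Of these markers 18 lay above 0 with a median of 0.15, and their summed level was 257 to 418 CPM in WT and 289 to 423 CPM in HOM. The part of such cells in the matrix genes was not tested.

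Of the pathways that MYT1L is known to hold down, the lists of WNT and NOTCH genes gave no call. The called gene Frzb was not a member of the WNT list. Frzb, a secreted antagonist of WNT ligands, was higher in HOM, at 2.65, 3.12, 2.04 and 2.83 CPM in WT and 3.48 to 7.21 CPM (median 6.19) in HOM (2.28-fold, log2 1.19 ± 0.19, adjusted p = 0.011). The differences in batch 1 and batch 3 were 1.20 and 1.12, among the most even of the called genes. In the list of 52 WNT genes none was called, 29 lay above 0 and the median was 0.03. Of its 4 members with the smallest p, 3 had values below 0 on the log2 scale. These were Lgr4, a receptor that amplifies WNT signals, at -0.42 ± 0.11 (adjusted p = 0.15), the ligand gene Wnt9a at -0.86 ± 0.26 (0.19) and the receptor gene Fzd9 at -0.48 ± 0.16 (0.24), while the ligand gene Wnt7b was at 0.67 ± 0.23 (0.24). None of 30 NOTCH genes was called either (18 above 0, median 0.07, with -0.07 in batch 1 and 0.18 in batch 3). The nearest was the ligand gene Dll3 at 0.55 ± 0.13 (adjusted p = 0.10). None of 34 BMP and TGF-beta genes was called, with the inhibitor Smad7 at 0.57 ± 0.14 (adjusted p = 0.12).

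Newborn neuron and progenitor genes were counted next. The list of intermediate progenitors and new neurons had 2 calls among 28, Cntn2 and Igfbpl1, with 20 above 0 and a median of 0.13. Igfbpl1, a secreted protein of newborn neurons, read 149, 129, 182 and 171 CPM in WT and 206 to 333 CPM (median 255) in HOM (1.61-fold, log2 0.68 ± 0.12, adjusted p = 0.032), without overlap. None of 31 radial glia genes (median -0.02, 14 above 0) and none of 40 cell cycle genes (median 0.11, 33 above 0) was called. Within batch 1 the cell cycle median was -0.01 and within batch 3 it was 0.18. The radial glia medians had opposite signs, at -0.18 in batch 1 and 0.21 in batch 3. The difference between these lists was not tested. None of 20 upper layer and of 23 deep layer genes was called.

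Other called genes belong to metabolism, chromatin and intracellular signalling. Hk2, a hexokinase that starts glycolysis, rose 1.89-fold (log2 0.92 ± 0.17, adjusted p = 0.032) from 2.600 to 4.98 CPM to 5.80 to 11.7 CPM (median 7.04). Cryz, a quinone oxidoreductase, rose 1.70-fold (adjusted p = 0.015). It overlaps Tyw3 on the opposite strand, which read 12.8 CPM in WT and differed by -0.07. Echdc2, an enoyl-CoA hydratase domain gene, rose 1.95-fold (adjusted p = 0.032). Phf21a, a histone reader of the LSD1 complex and an autism risk gene, read 82.9, 80.8, 63.0 and 81.9 CPM in WT and 93.7 to 114 CPM (median 100.3) in HOM (1.33-fold, log2 0.41 ± 0.08, adjusted p = 0.041). Its difference was 0.29 in batch 1 and 0.51 in batch 3. The call held in 2 of the 10 fits that left out 1 animal, as did those of Adamts17, Arl5c, Cck and Pcdh19. It was the only call among 56 autism risk genes, of which 20 lay above 0 with a median of -0.03. Edaradd, the adaptor of the ectodysplasin receptor, rose 2.17-fold (log2 1.12 ± 0.17, adjusted p = 0.011), from 7.08, 5.20, 13.3 and 10.8 CPM in WT to 17.96 to 21.8 CPM (median 19.5) in HOM. The WT animals of batch 1 were again the lowest, at 7.08 and 5.20 CPM. Ier5l, an immediate early response gene family member, read 14.9, 14.3, 13.2 and 12.2 CPM in WT and 19.2 to 27.7 CPM (median 21.6) in HOM (1.64-fold, log2 0.71 ± 0.11, adjusted p = 0.011).

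The remaining falls were smaller. Habp4, which encodes an RNA-binding protein, read 54.7, 51.4, 51.9 and 43.3 CPM in WT and 34.3 to 39.3 CPM (median 36.0) in HOM (0.717 of WT, log2 -0.48 ± 0.09, adjusted p = 0.032). Iffo2, of the intermediate filament family, and Trim62, a ubiquitin ligase, were at 0.727 and 0.745 of WT (log2 -0.46 ± 0.09 and -0.42 ± 0.08, adjusted p = 0.035 for each). Habp4, Iffo2 and Trim62 did not overlap between the groups. Iffo2 overlaps Gm21969 on the same strand, which read 27.6 CPM in WT and was not called. The adaptor gene Shb, the GTPase gene Arl5c, Mro, the scaffold gene Ttc7 and the non-coding 4833418N02Rik completed the rises, at 1.55- to 2.11-fold. Ttc7 and 4833418N02Rik lie head to head on chromosome 17, their annotated starts separated by 71 bases.

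Summed striatum markers were lowest in the WT animals of batch 1. All 18 striatum markers were tested and all 18 had differences above 0, with a median log2 difference of 0.74 against 0.00 over all genes tested, of which 50.7% lay above 0. The median was 1.48 within batch 1 and 0.03 within batch 3. Their summed level was 422 and 413 CPM in the WT animals of batch 1, 655 and 692 CPM in those of batch 3, and 656 to 955 CPM in HOM. By this sum only the WT animals of batch 1 stood low, since the HET animals had 636 to 878 CPM. The mean log2 CPM of the list gave another order. By it P0_HOM_670 of batch 3, at 2.71, lay between P0_WT_309 at 2.35 and P0_WT_311 at 2.75. Ppp1r1b was the only called gene of the list, the dopamine receptor gene Drd1 was at 0.48 ± 0.17 (adjusted p = 0.27) and Ebf1 at 1.18 ± 0.44 (adjusted p = 0.30). With each animal's mean striatum marker level, chosen after seeing the data, added to the fit, 74 genes were called. Of the 36, 23 remained called and 13 did not. Among the 23 were Myt1l, Sstr1, Kcna1, Npy, Ppp1r1b (1.16, adjusted p = 0.019), Frzb and Cntn2. Ppp1r1b is itself a member of the list that gave this level. In bulk tissue fewer cells of a type and less RNA per cell cannot be told apart. This fit does not settle the part of dissected striatum in the called genes, which was not tested.

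**Figure D3:**
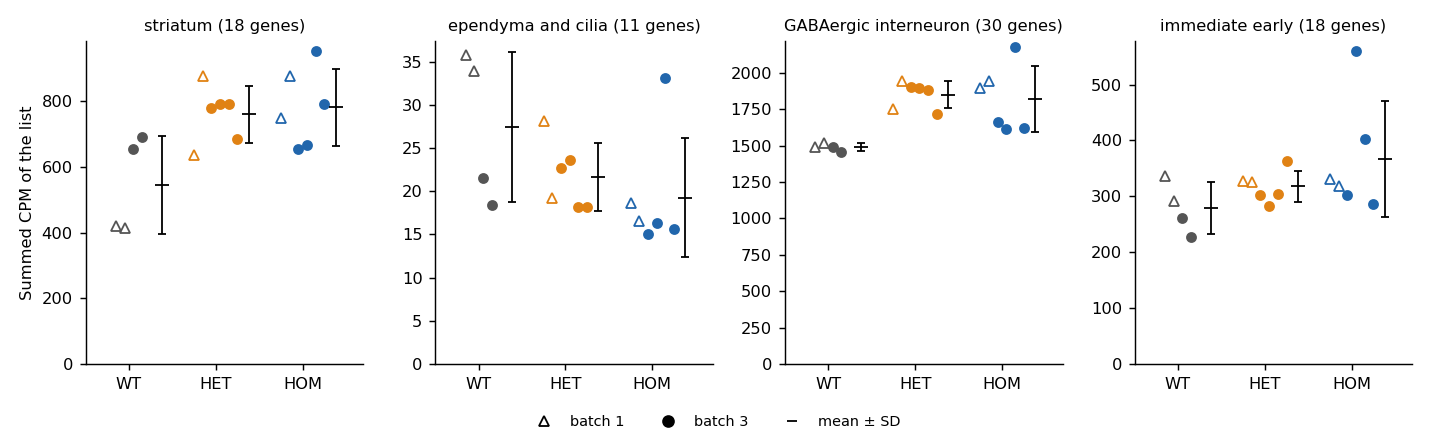
Summed CPM of 4 marker lists in each P0 animal by genotype (open triangles batch 1, filled circles batch 3, mean ± SD beside them). The WT animals of batch 1 are the lowest for striatum, at 422 and 413 CPM, and the highest for ependyma and cilia, at 35.8 and 34.0 CPM.

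Ependymal genes showed the opposite pattern. Of the 11 tested markers of ependyma and motile cilia, 0 of 11 lay above 0, with a median of -0.81, -1.27 within batch 1 and -0.14 within batch 3, and none was called. The dynein genes Dnah5 and Dnah9 had differences of -0.98 ± 0.21 and -0.87 ± 0.26 (adjusted p = 0.063 and 0.18). Their list summed to 35.8 and 34.0 CPM in the WT animals of batch 1, to 21.5 and 18.47 CPM in those of batch 3, and to 15.0 to 33.1 CPM in HOM. The top HOM value, that of P0_HOM_690 of batch 3, lay close to the WT animals of batch 1. With the mean level of this list in the fit 14 genes were called, 11 of them among the 36. Whether the ependymal level follows the genotype or the dissection cannot be told apart in these animals.

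The interneuron list was examined next. Of 30 markers tested, 26 lay above 0 with a median of 0.29, 0.45 in batch 1 and 0.14 in batch 3, and Npy and Cck were called. Their summed level, which includes Npy and Cck, did not overlap, at 1457 to 1519 CPM in WT and 1613 to 2179 CPM in HOM. By the mean log2 CPM of the list the groups overlapped, at 4.15 to 4.44 in WT and 4.36 to 4.97 in HOM. The lack of overlap in the sum was not particular to interneurons. The sums of the MYT family, of intermediate progenitors and new neurons, of BMP and TGF-beta and of Cajal-Retzius and layer I genes did not overlap either, with HOM higher in each. By mean log2 CPM only the MYT family, which holds the called Myt1l, stayed without overlap among these lists. For the interneuron list the HET animals averaged 1846 CPM in batch 1 and 1849 CPM in batch 3, against 1919 and 1769 CPM in HOM. Dlx2, a regulator of interneuron fate, was at 0.46 ± 0.11 (adjusted p = 0.10) and Reln, a secreted protein of Cajal-Retzius cells and interneurons, at 0.33 ± 0.10 (adjusted p = 0.18). The highest HOM animal for this list, P0_HOM_690, was also the highest for striatum at 955 CPM, and several interneuron markers are made in the striatum too. Immediate early genes, which report recent neuronal activity or stress at dissection, had 16 of 18 above 0 with a median of 0.36 and no call. Here the difference came from batch 3, with a median of 0.52 against 0.07 in batch 1. Egr1 read 7.72 to 14.7 CPM in WT and 10.8 to 81.8 CPM in HOM (log2 1.82 ± 0.45, adjusted p = 0.11), and the top value was that of P0_HOM_671.

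**Figure D4:**
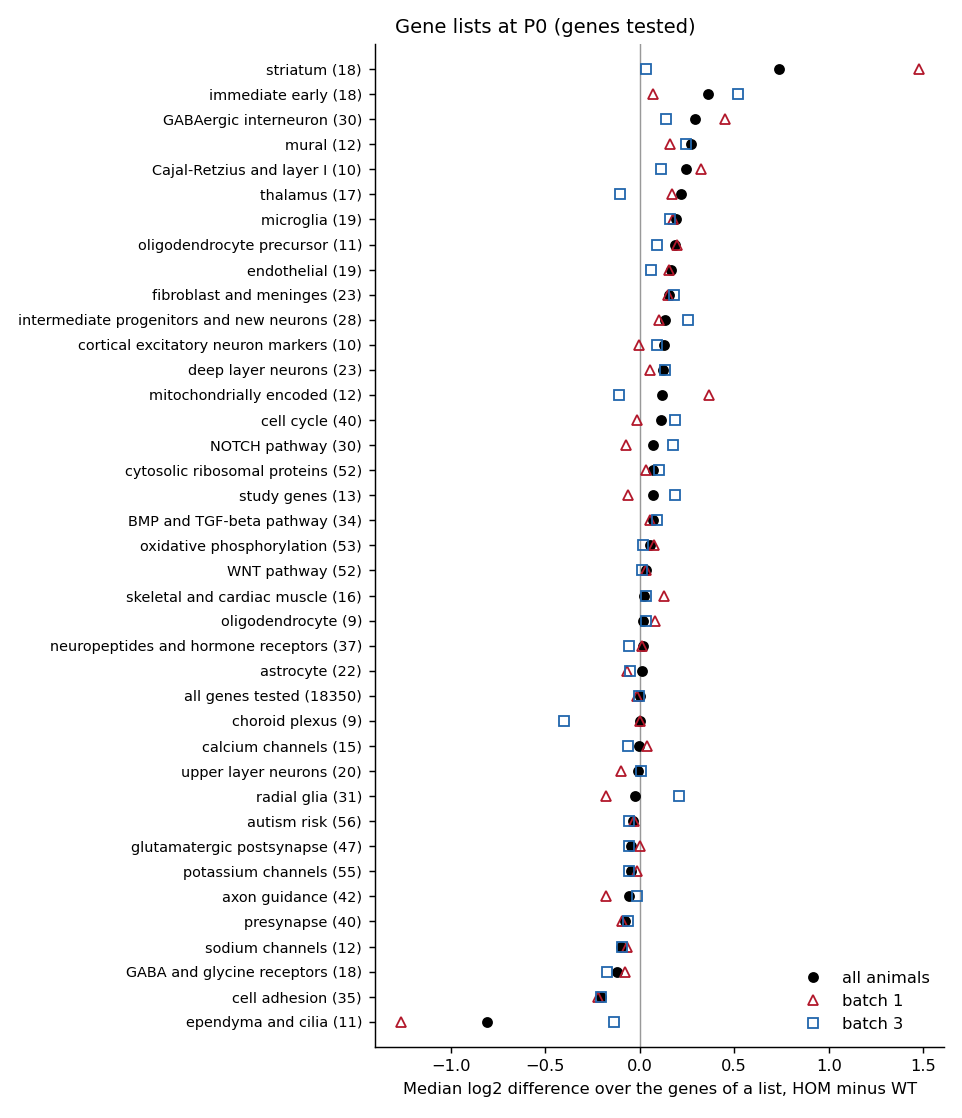
Median log2 difference, HOM minus WT, over the tested genes of each list (number tested in parentheses) for all animals (black), batch 1 (open triangles) and batch 3 (open squares). Striatum and ependyma lie farthest from 0, at 0.74 and -0.81, and do so through batch 1, whereas cell adhesion lies at -0.21 in all animals with the batches side by side.

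The remaining lists of other cell types gave no call. They covered microglia (16 of 19 above 0, median 0.19), mural cells (11 of 12, 0.27), endothelium (15 of 19, 0.16), oligodendrocyte precursors (8 of 11, 0.19), oligodendrocytes (5 of 9, 0.02), thalamus (11 of 17, 0.22), choroid plexus (5 of 9, 0.00), erythroid cells (6 of 6, 0.17) and muscle (8 of 16, 0.02). Gpc5 was the only call among 22 astrocyte markers (12 above 0, median 0.01). Cytosolic ribosomal protein genes lay above 0 in 50 of 52 but by a median of 0.07, and mitochondrially encoded genes in 9 of 12 by a median of 0.12, without a call in either list. Some of these medians changed sign between batch 1 and batch 3. They were 0.37 and -0.11 for mitochondrially encoded genes, 0.49 and -0.11 for erythroid cells and 0.17 and -0.10 for thalamus. For choroid plexus they were 0.00 and -0.40. Among the genes that the study itself singled out, Myt1l was the only call of 13 tested at P0. The log2 differences of Hes1 and Id3, targets of NOTCH and BMP signals, were 0.32 and 0.35, and those of the progenitor regulators Sox2 and Eomes were 0.13 and -0.63, none of them called.

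Heterozygous animals of the same age share the WT animals with one comparison and the HOM animals with another, so their values are set side by side without a count of agreement. Between HET and WT no gene was called (0 of 18350, 0%), although 3428 had an unadjusted p under 0.05. DESeq2 with the same covariate called 435 of 37898. Between HOM and HET 62 genes were called (0.338%), 14 higher and 48 lower in HOM. Myt1l read 535 to 645 CPM in HET with a median of 563. Its log2 difference was 0.43 for HET minus WT (adjusted p = 0.15), 0.68 for HOM minus HET (adjusted p = 0.00093) and 1.11 for HOM minus WT. The largest HOM minus HET differences among the called genes were those of Slc6a4 (1.25, adjusted p = 0.051), Gpc5 (-0.91, 0.039) and Hk2 (0.86, 0.022). The largest HET minus WT differences were those of Ppp1r1b (1.03), Kcna1 (0.92) and Shb (0.64), each with adjusted p = 0.15. For Trim62, Habp4, Phf21a, Hk2, Nptxr, Ttc7 and Iffo2, HET and WT lay within 0.14 of each other on the log2 scale. HOM differed from HET in these genes by -0.56, -0.51, 0.47, 0.86, -0.57, 0.50 and -0.33.

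In the cortex of other animals at E18.5, the day before birth, most of the called genes differed the same way. All 36 were tested there, 35 had the same sign, and 15 were also called, all 15 in the same direction, where 730 of 17948 genes were called (4.07%). Over all genes tested at both ages 60.8% had the same sign. For the 29 higher genes the median was 0.79 at P0 and 0.45 at E18.5, and for the 7 lower genes -0.67 and -0.66. The P0 values had been chosen for their size and the E18.5 values had not.

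The genes closest in size at both ages were Sstr1 at -1.09 and -1.08, Habp4 at -0.48 and -0.54, Hk2 at 0.92 and 0.84, Myt1l at 1.11 and 0.99 and Cryz at 0.76 and 0.64, P0 first. Ranked by the p of the difference between the ages, the first 5 apart from the non-coding 4833418N02Rik (unadjusted p = 0.0036) were Frzb at 1.19 and -0.01, Mmp2 at 0.89 and 0.13, Prkcd at 0.74 and 0.06, Arl5c at 0.89 and 0.16 and Npy at 0.83 and 0.11. Slc6a4 at 1.62 and 0.78 and Ppp1r1b at 1.27 and 0.41 were farther apart than the last 4 of these, with unadjusted p = 0.066 and 0.0048. Mmp14 was the reverse case, at 0.62 and 1.17. No gene passed the test of the difference between the ages (0 of 19047, 0%) by edgeR or by DESeq2. The unadjusted p was under 0.05 for 1391 genes by edgeR and for 1759 of 39227 by DESeq2. Frzb, with a difference of 1.19 between the ages, had an unadjusted p of 0.00018 and an adjusted p of 0.38 by edgeR. Age and the part of the cortex taken cannot be told apart in this contrast.

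**Figure D5:**
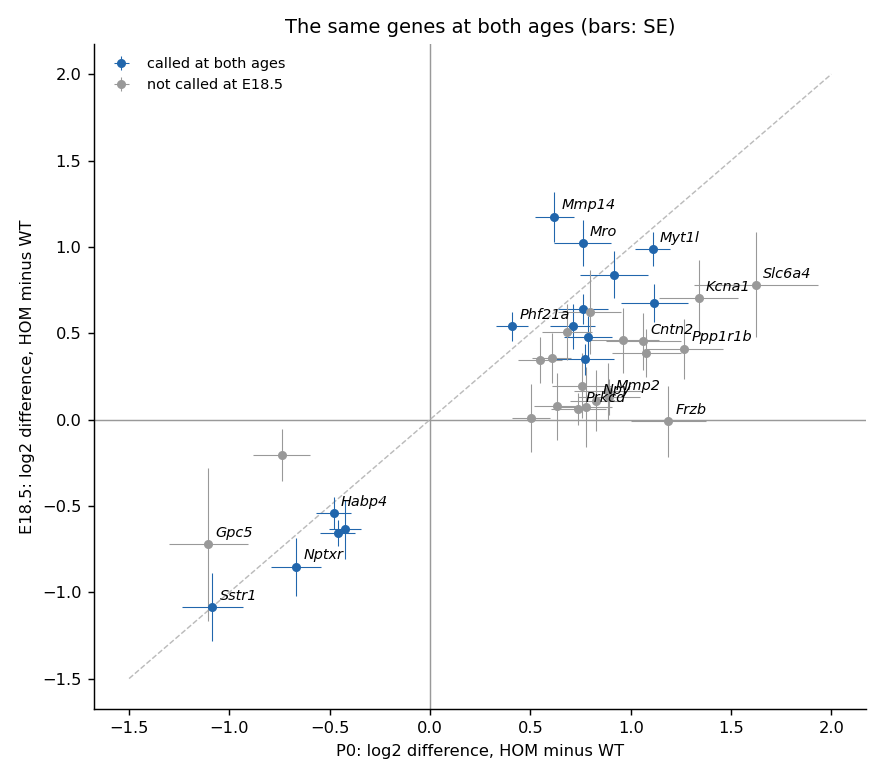
Log2 difference, HOM minus WT, of the 36 genes at P0 (prefrontal cortex) and at E18.5 (cortex), with bars of ± SE and a dashed line of equal values. Blue genes were called at both ages, and 35 of 36 points lie on the same side of 0 at both, with Frzb at -0.01 on the vertical axis.

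The E18.5 calls could be read at P0 in turn. Of 357 genes called higher at E18.5 and tested at P0, 86.6% lay above 0, with a median of 0.25 against 0.52 at E18.5, and 10 were called higher. Of 370 called lower at E18.5, 331 lay below 0, with a median of -0.17 against -0.36, and 5 were called lower. These medians were 0.17 and 0.30 for the higher genes and -0.20 and -0.17 for the lower genes within batch 1 and batch 3. In contrast to the striatum markers, both batches therefore showed them.

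During normal development from E18.5 (whole cortex) to P22 (prefrontal cortex), in WT animals that the P0 comparison did not use, 16 of the 29 higher genes fell and 9 rose, against 43.6% and 42.6% of 18008 genes over all. The matching counts for the 7 lower genes were 3 that fell and 4 that rose. Igfbpl1, Edaradd and Slc6a4 fell most, by 9.46, 6.49 and 4.57 on the log2 scale, whereas Gpc5, Nptxr and Habp4 rose by 4.48, 3.01 and 2.81. Kcna1, Frzb and Cck, all higher in HOM at P0, rose by 2.88, 3.14 and 3.37.

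Gene length and promoter letters were read as a description. The called genes spanned a median of 32.3 kb against 19.2 kb over all genes tested, and 9 of 36 were longer than 100 kb (25%) against 13.1%. The AAAGTT core of MYT factors was searched on both strands, AAAGTT and AACTTT, from 250 bases before to 50 after each RefSeq start on GRCm38.p6. Of the 29 higher genes 21 matched an entry, and 4 of their 28 promoters held it (14.3%). Of the 7 lower genes 5 matched and 0 of 6 promoters held it, compared with 10.9% of 15939 promoters of all genes tested. The matches of the higher genes are given on the strand of the gene with the 6 motif bases in capitals, shown because the core is the one named above for this protein family:
Slc6a4: tagcagagaaacAAAGTTcttcggtctcaa
Phf21a, first match: agcaaaacccagAAAGTTttggtactgaat
Phf21a, second match: aatttaattataAAAGTTtcttcattccca
Cryz: ccggagaggaccAAAGTTccccattggcgc
Mmp14: acagaaaagacaAACTTTtttttccccttc
They begin 121, 155, 53, 73 and 99 bases before the respective starts, and the windows lie at chr11:76998464-76998493, chr2:92221305-92221334, chr2:92221407-92221436, chr3:154597112-154597141 and chr14:54431487-54431516, all on the plus strand. A match of 6 bases is a description of the letters and not of binding.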

How the data were processed

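Total RNA of mouse cortex was sequenced as dUTP libraries, mapped to mm10 with STAR and, per the labels and the study's methods, tested by the authors with DESeq2. Which program counted the reads, with which strand option and gene models, is not given in the sources used here. The authors deposited a table of raw counts per gene and library, whole numbers with no normalisation, which was the only file used. Their normalised counts and their comparison table (fold changes and p-values) were not used.

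Libraries of an animal were summed. The pairs of libraries of 1 animal differed little beyond counting noise (chi-square per degree of freedom 1.28 to 1.34 in 10 pairs), those of different animals far more (7.59 to 34.9 in 13 pairs), so n counts animals. Whether the animals were littermates is not given. The 16 P0 animals entered edgeR 4.0.16 (R 4.3.3) with filterByExpr, TMM factors, the quasi-likelihood test and batch as a term, and 18350 genes were tested. The SE is the log2 difference divided by the root of the F value. E18.5 was fitted likewise on all its animals, HET among them. The contrast of ages was fitted on all animals of both ages, with a batch term for each age. Log2 CPM used a pseudocount of 2. The P0 fit was tested on simulated data. Alternatives used DESeq2 1.42.0 and limma 3.58.1.

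Named were Myt1l, its paralogues and the study's genes, up to 10 rises and 10 falls of greatest size (called, average log2 CPM not under 1, all HOM animals moving the same way), the 10 smallest p-values, up to 4 genes per list, those most and least alike at E18.5 (5 each) and those farthest from HET (3 each). Predicted genes, pseudogenes, Xist, Tsix and Y-linked genes were kept out of the parts of this rule that rank genes. Some genes that the rule names are not reported here. Called genes outside the rule (8: 4833418N02Rik, Adamts17, Col23a1, Col5a2, Mro, Ptpru, Spon1 and Ttc7) and the overlapping neighbours Npcd, Tyw3 and Gm21969 were named after their values were seen. The comparison and the gene lists were chosen with earlier results of these data known. Depth bounds precision, since a gene at 1 CPM had about 30.0 to 149.6 reads per animal.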

Additional observations from a re-analysis of the deposited data

Results flagged for a closer look

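Of 152 groups examined (each called gene and each list, in the 4 WT and in the 6 HOM animals), 2 held an animal whose gap to its nearest neighbour was too large a share of the group's range by Dixon's test, where chance gives about 1 in 20. For Mmp14 the animal P0_HOM_324 of batch 1 read 37.7 CPM against 46.5 to 52.3 CPM in the other HOM animals, a gap of 0.636 of the range. It was still above the highest WT animal, at 35.4 CPM. For Phf21a the animal P0_WT_674 read 63.0 CPM against 80.8 to 82.9 CPM in the other WT animals, a gap of 0.905 of the range. All HOM animals, from 93.7 CPM upwards, lay above those other WT animals too.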

How the results depend on the processing

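All 36 genes called between HOM and WT kept their direction in every alternative run (828 values, 0 reversed), but their number moved. Every run reused animals that had chosen these genes, so a reversal was unlikely from the start. Against 36 calls, DESeq2 size factors gave 37, thinning batch 1 to the depth of batch 3 gave 37 and batch with sex gave 31, while 10 were called with sex alone, 17 with no covariate, 3 from HOM and WT animals alone, 101 within batch 1, 1 within batch 3, 89 at an adjusted p of 0.1, 387 by DESeq2 and 834 (387 of them lower) with no filter on low counts. The last 2 called all 36 as well, and each took in 37898 genes. The run within batch 1 took in 22225 genes, against 18350 in the main fit. With the level of the striatum list in the fit, chosen after seeing the data, 74 were called (23 of the 36), and with that of the ependyma list 14 (11 of the 36). Leaving out 1 animal at a time gave 1 to 187 calls: 1 without P0_WT_311, 5 without P0_WT_309, 7 without P0_HOM_318, 17 without P0_HOM_671, 70 without P0_WT_704 and 187 without P0_HOM_690. Myt1l held in 10 of 10 of these fits, Sstr1 and Ier5l in 9 of 10. Fewest were the 2 of 10 for Adamts17, Arl5c, Cck, Pcdh19 and Phf21a. The cause of these moves was not tested. The fit on unsummed libraries with a replicate block (library number as a term, animal as a random block, correlation 0.848) called 3209, and it takes 26 libraries of 16 animals. The library numbers mark runs of an animal and pair no animals across groups.

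For HOM against HET, 62 calls became 1 with sex and 41 with batch and sex. For HET against WT, 0 became 435 of 37898 genes by DESeq2. For E18.5, 730 became 56 with sex, 73 with no covariate and 1601 of 35235 genes by DESeq2, and 585 with batch and sex. The contrast of ages stayed at 0 calls in each alternative, at an adjusted p of 0.1 too. Among 101 named genes that were not called, 17 of 2323 values reversed. Within batch 3, Clu was at 0.033, Cacna1i at 0.00056, Eomes at 0.35, St18 at 0.11 and Fezf2 at 0.14. Within batch 1, Sox2 was at -0.045 and Tubb3 at -0.088. With the striatum level in the fit, Zic4 was at -0.14, Chd8 at 0.0086 and Fezf2 at 0.14. Fezf2 was at 0.0060 with sex and 0.042 with no covariate. Leaving out animals moved Sema3c from -0.13 to 0.012 and Fezf2 from -0.11 to 0.042.

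Only 4 WT animals bound the comparison. The WT animals of batch 1 were the lowest for summed striatum markers and the highest for summed ependyma markers. They did not stand alone, since P0_HOM_690 of batch 3 lay close to them for ependyma. By the mean log2 CPM of striatum markers P0_HOM_670 of batch 3 was as low. Genotype, sex and dissection cannot be separated within batch 1. Animals of batch 3 had about 30.0 to 37.8 M reads, so low genes such as Slc6a4 rest on fewer reads there than in batch 1.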
